A study of Mus musculus with 6 samples.

Results

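Expression of 9 genes that mark monocytes was followed in mouse dendritic cells sorted by the surface protein Ly6G. The genes were Plac8, Vcan, F13a1, Fn1, Emilin2, Klf4, Ms4a4c, Ms4a6c and Thbs1. They were found by symbol among the 18193 genes that the platform annotation of the Affymetrix Mouse Genome 430 2.0 array names, and every probe set (a group of short probes read as one value) with exactly 1 of these symbols was taken. This gave 21 probe sets of 34945, and 1 further probe set that carries Thbs1 together with another symbol was not used. Dendritic cells sorted as CD11c+/MHC II+/Ly6G+ (Ly6G+ DC, 3 arrays) were compared with those sorted as CD11c+/MHC II+/Ly6G- (Ly6G- DC, 3 arrays). Both came from bone marrow of C57BL/6 mice grown for 6 days with 10 ng/ml of GM-CSF, a growth factor that yields myeloid cells in culture, and both were sorted at the same time from the same cultures. The labels give neither the age of the mice nor which arrays share a culture, so a p-value here reflects only array-to-array spread, which may be technical. Each array read RNA of a sorted population in bulk, so a different share of cells that express a gene and a different amount of RNA per cell cannot be told apart.

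Monocytes are blood cells of the myeloid lineage that arise in bone marrow, enter tissues and there become macrophages or dendritic cells. In GM-CSF cultures of bone marrow, many of the dendritic cells descend from monocytes and their precursors, and neutrophils and macrophages grow beside them. The genes studied here fall into 3 kinds. Vcan, F13a1, Fn1, Emilin2 and Thbs1 encode secreted proteins of the extracellular matrix or of clotting. Klf4 encodes a transcription factor that monocyte development needs. Plac8, Ms4a4c and Ms4a6c encode proteins of the cell itself, Plac8 a small cysteine-rich protein and the MS4A genes proteins of the membrane.

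Signals of Plac8, Emilin2, 2 probe sets of Vcan and 1 each of Fn1 and Thbs1 lay higher on every Ly6G+ array than on any Ly6G- array, with log2 fold changes of 0.86 to 1.63. Of all probe sets tested, 4.49% lay higher in this way and 7.24% lower. F13a1, with 1.33, overlapped between the groups. Probe sets of Klf4, Ms4a4c and Ms4a6c had log2 fold changes between -0.25 and 0.14, and the negative ones among them were positive with arrays scaled to a common median. By limma 0 of the member probe sets passed after adjustment over all probe sets tested, of which 0% passed. The median log2 fold change of the member probe sets tested was 0.86, and 0.55 when the array Ly6G- DC 3 was left out.

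Promoter sequences are shown for Plac8, which had the largest log2 fold change among the member probe sets whose groups did not overlap, and for Vcan, with 2 such probe sets. They were chosen after these values were seen. Each is given as 250 bases before to 50 bases after the start of transcription in RefSeq's table for GRCm38.p6, which lists 2 starts of Plac8 and 1 of Vcan. Capitals mark 3 short motifs, searched on both strands and not overlapping one another in these windows: GAGGAA, a core bound by the myeloid factor PU.1, CACCC, a core bound by Kruppel-like factors such as Klf4, and CCAAT, the CCAAT box.
Plac8, outer start, chr5:100572156-100572455, - strand: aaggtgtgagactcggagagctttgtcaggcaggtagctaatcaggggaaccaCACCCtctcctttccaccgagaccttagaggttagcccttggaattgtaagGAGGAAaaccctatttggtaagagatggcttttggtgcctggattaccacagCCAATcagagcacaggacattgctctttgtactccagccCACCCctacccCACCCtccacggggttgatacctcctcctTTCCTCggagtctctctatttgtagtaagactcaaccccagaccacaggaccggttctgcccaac
Plac8, inner start, chr5:100563047-100563346, - strand: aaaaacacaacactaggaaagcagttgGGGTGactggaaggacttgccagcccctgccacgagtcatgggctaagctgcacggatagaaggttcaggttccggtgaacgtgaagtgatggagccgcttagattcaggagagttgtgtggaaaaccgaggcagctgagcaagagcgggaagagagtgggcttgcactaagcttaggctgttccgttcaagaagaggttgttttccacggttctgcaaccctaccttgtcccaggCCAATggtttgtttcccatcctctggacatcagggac
Vcan, chr13:89742463-89742762, - strand: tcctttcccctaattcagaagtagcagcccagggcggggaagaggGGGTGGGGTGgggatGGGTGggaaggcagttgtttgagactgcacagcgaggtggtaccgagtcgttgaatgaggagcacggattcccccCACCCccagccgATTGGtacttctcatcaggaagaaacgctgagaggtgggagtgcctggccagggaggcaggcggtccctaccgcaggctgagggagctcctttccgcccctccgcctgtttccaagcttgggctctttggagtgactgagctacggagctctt
The table matched 7 of the 9 members, with 10 starts in all, and not Fn1 or Thbs1. The outer Plac8 window held GAGGAA at 2 places, CACCC at 3 and CCAAT at 1. The Vcan window held CACCC at 4 places, CCAAT at 1 and GAGGAA at 0. Over the 10 member windows, GAGGAA was in 4, CACCC in 7 and CCAAT in 4. Of all 32851 windows of the same length, 28.3% held GAGGAA, 57.5% CACCC and 37.4% CCAAT. A match is a description of these letters and not a binding site.

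Values were signal intensities on a linear scale, and each array had the same mean of 250 after trimming 2% at either end. Probe sets entered the test if 3 or more of the 6 arrays, of either group, showed a signal over the 40th percentile of that array. Of the 21 member probe sets 15 were kept, with at least 1 for each of the 9 genes, and each of the 15 passed the percentile on at least 1 Ly6G- array. The 6 others were 5 probe sets of Vcan and 1 of Ms4a4c. Limma was fitted to log2(signal + 16) over all 28254 kept probe sets, with the group alone as a term and Benjamini-Hochberg adjustment over all of them. Fold changes are given on that log2 scale, as Ly6G+ DC over Ly6G- DC, with standard errors (SE), and they understate the change of dim probe sets.

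The arrays differed in ways that the sort does not describe. Hybridization controls, transcripts spiked in just before hybridization, had a geometric mean signal of 1648, 6688 and 2039 on Ly6G+ DC 1, 2 and 3 and of 1529, 12321 and 12842 on Ly6G- DC 1, 2 and 3. Thus 1 Ly6G+ array (number 2) and 2 Ly6G- arrays (numbers 2 and 3) made up a high side and the others a low side, a split made with these values in view. Actb signal at the 3' end over that at the 5' end, a measure of how complete the labelled RNA was, came to 1.19, 3.98 and 1.49 in the Ly6G+ samples and 1.17, 6.85 and 6.55 in the Ly6G- samples, and so followed that split. Member results are therefore given with this side as a block as well, and within each side, where 1 array of one group stands against 2 of the other. Transcripts of CD11c and MHC II, for which both groups were sorted, were bright in both. Itgax, which encodes CD11c, read 2728 to 7884 over the Ly6G+ arrays and 5610 to 9630 over the Ly6G- arrays. H2-Ab1, an MHC II chain, read 10093 to 16313 over the Ly6G+ arrays and 17389 to 21661 over the Ly6G- arrays.

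By the adjusted p-value of limma none of the 15 member probe sets passed the threshold of 0.05. Their adjusted p-values ran from 0.836 to 0.982, and 0% of all kept probe sets passed. At an unadjusted p under 0.05, 8 of the 15 were higher in the Ly6G+ samples and 0 lower, where 2.75% of all kept probe sets were higher and 2.87% lower. With every array scaled to a common median, the counts over all kept probe sets were 1782 higher and 238 lower, and with quantile normalization 914 and 545, against 778 and 811 as deposited. Common median scaling gave a median log2 fold change of 0.23 over all kept probe sets, against -0.06 as deposited, and 15 of the 15 members were then positive, with a median of 1.19. Groups did not overlap for 6 of the 15, all higher in Ly6G+ DC, where 4.49% of all kept probe sets were higher and 7.24% lower. These 6 belonged to 5 genes: Plac8, Vcan with 2 probe sets, Fn1, Emilin2 and Thbs1. The median log2 fold change of the 15 was 0.86, against -0.06 over all kept probe sets, and 12 of the 15 were positive. Blocking on the side gave 7 of the 15 higher at an unadjusted p under 0.05 by limma, where 3.40% of all kept probe sets were. The median of the 15 was then 0.70, against -0.02 over all kept probe sets. Leaving out Ly6G+ DC 3 gave 3 in place of the 8, where 1.04% of all kept probe sets were higher, leaving out Ly6G- DC 3 gave 4, where 1.69% were, and leaving out Ly6G+ DC 1 gave 5, where 1.96% were. The count with no overlap was 10 without Ly6G- DC 1, where 14.1% of all kept probe sets were higher, and 9 without Ly6G+ DC 2, where 9.05% were. These counts rest on probe sets kept by their signal and on members chosen with earlier results of these data known.

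**Figure D1:**
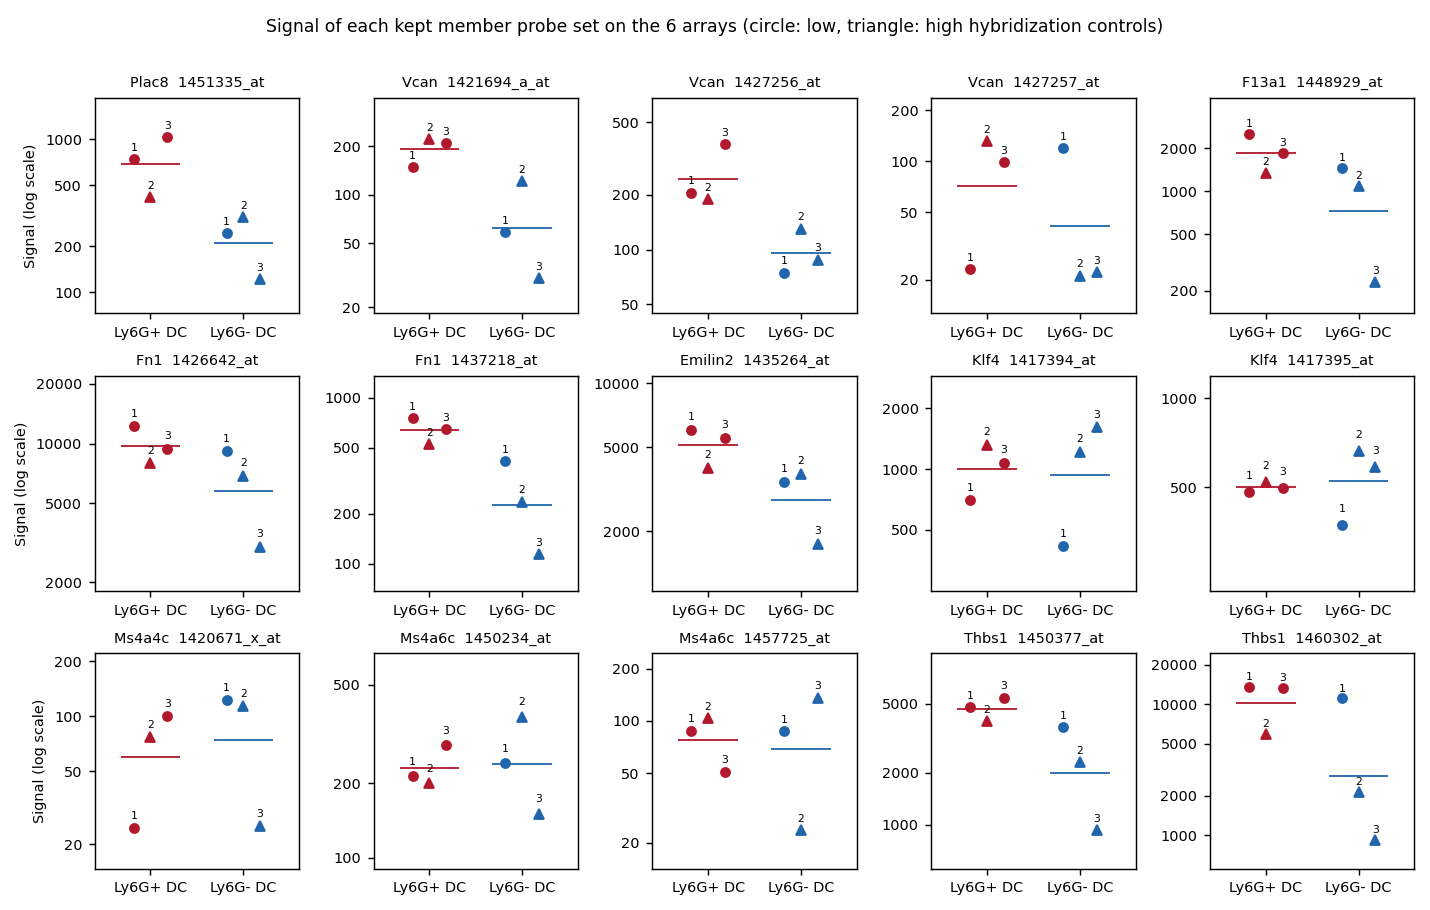
Signals of the 15 kept member probe sets on a log scale, with Ly6G+ DC (red) left of Ly6G- DC (blue), 1 point per array labelled with its number and a line at the group mean taken on the log2(signal + 16) scale. Circles and triangles stand for the low and high side of the hybridization controls, and the groups are separate in 6 panels: Plac8, 2 of Vcan, 1 of Fn1, Emilin2 and 1 of Thbs1.

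Plac8 had signals of 741, 420 and 1030 on Ly6G+ DC 1, 2 and 3, against 244, 310 and 122 on Ly6G- DC 1, 2 and 3. All Ly6G+ arrays lay above all Ly6G- arrays, and the lowest value was on Ly6G- DC 3. Its means were 730 ± 305 in the Ly6G+ samples and 226 ± 95.4 in the Ly6G- samples (SD, n = 3 arrays each). The log2 fold change was 1.63 ± 0.43 (SE), with an adjusted p of 0.836 by limma. Blocking on the side gave 1.41 ± 0.38, with 1.77 within the low and 1.04 within the high side. Without Ly6G- DC 3 it was 1.27, and the leave-one-out values ran from 1.27 to 1.97.

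Vcan encodes versican, a large proteoglycan of the matrix that carries long sugar chains and binds hyaluronan. Its probe set 1427256_at read 205, 189 and 379 in the Ly6G+ samples and 74.5, 130 and 88.0 in the Ly6G- samples. Its probe set 1421694_a_at read 149, 222 and 210 in the Ly6G+ samples and 58.9, 121 and 30.5 in the Ly6G- samples. In both the groups were separate, with Ly6G- DC 2 the highest of the Ly6G- arrays. The log2 fold changes were 1.23 ± 0.39 and 1.40 ± 0.46 (SE), each with an adjusted p of 0.836 by limma. With the side as a block they were 1.22 ± 0.40 and 1.47 ± 0.47. Within the low and the high side 1427256_at had 1.71 and 0.73, and 1421694_a_at had 1.37 and 1.57. Leaving out Ly6G- DC 3 gave 1.18 for 1427256_at and 1.03 for 1421694_a_at. The signal of 1421694_a_at on Ly6G- DC 3, 30.5, was under the 40th percentile of that array, and this probe set passed on 2 Ly6G- arrays. The third kept probe set, 1427257_at, read 23.0, 131 and 98.6 in the Ly6G+ samples and 119, 21.1 and 22.2 in the Ly6G- samples. It passed the percentile on 2 Ly6G+ arrays and 1 Ly6G- array, the groups overlapped, and the log2 fold change was -1.02 within the low side and 1.96 within the high side, with 0.59 ± 0.70 (SE) overall and 0.47 ± 0.74 with the block. Without Ly6G- DC 3 it was 0.29, and leaving out each array in turn gave 0.21 to 1.21. The 5 probe sets of Vcan that were not kept read 0.435 to 70.2 in the Ly6G+ samples and 1.56 to 58.0 in the Ly6G- samples, too dim for a fold change.

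Fn1 encodes fibronectin, a matrix protein to which cells attach through integrins. Probe set 1437218_at read 757, 529 and 653 in the Ly6G+ samples and 415, 237 and 114 in the Ly6G- samples. The groups were separate, and the log2 fold change was 1.44 ± 0.43 (SE), with an adjusted p of 0.836 by limma. Probe set 1426642_at read 12214, 7947 and 9434 in the Ly6G+ samples and 9184, 6893 and 3020 in the Ly6G- samples. Here Ly6G- DC 1 lay above Ly6G+ DC 2, and the log2 fold change was 0.75 ± 0.44 (SE), with an adjusted p of 0.839. The difference between the groups was thus larger in one probe set of the gene than in the other, and a test of that was not run. Without Ly6G- DC 3 the values were 0.99 for 1437218_at and 0.29 for 1426642_at. With the side as a block they were 1.16 ± 0.35 and 0.51 ± 0.32. Within the low and the high side 1437218_at had 0.74 and 1.58, and 1426642_at had 0.22 and 0.80.

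Emilin2 encodes a glycoprotein of elastin microfibrils. It read 6047, 3994 and 5508 in the Ly6G+ samples, against 3409, 3747 and 1737 in the Ly6G- samples. The groups were separate, but Ly6G+ DC 2 lay close to Ly6G- DC 2, the other array of that number. The log2 fold change was 0.86 ± 0.37 (SE), with an adjusted p of 0.836 by limma, and 0.51 without Ly6G- DC 3. It was 0.70 ± 0.30 with the side as a block, 0.76 within the low side and 0.64 within the high side.

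Thbs1 encodes thrombospondin, a protein that platelets and monocytes release and that binds CD36 and CD47. Probe set 1450377_at read 4771, 3974 and 5438 in the Ly6G+ samples and 3671, 2307 and 930 in the Ly6G- samples, and the groups were separate. Probe set 1460302_at read 13609, 5973 and 13322 in the Ly6G+ samples and 11103, 2157 and 926 in the Ly6G- samples. In this probe set Ly6G- DC 1 lay above Ly6G+ DC 2, and within each group the arrays of the high side were the lowest. The log2 fold changes were 1.23 ± 0.46 for 1450377_at and 1.86 ± 0.76 for 1460302_at (SE), each with an adjusted p of 0.836 by limma. With the side as a block they were 0.95 ± 0.36 and 1.17 ± 0.41. Within the low and the high side 1450377_at had 0.47 and 1.43, and 1460302_at had 0.28 and 2.07. Without Ly6G- DC 3 they were 0.69 and 1.07. Without Ly6G- DC 1, 1460302_at was 2.85 ± 0.45 and passed, with an adjusted p of 0.0436 by limma. This was the only pass of any member probe set over 19 alternatives, and in the others the adjusted p of 1460302_at was 0.273 or more. The fit with the pass kept only Ly6G- DC 2 and 3 of the Ly6G- arrays, both of the high side. Ly6G+ DC 1 and 3 were of the low side, so the group and the side were largely confounded in it.

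F13a1 encodes the catalytic chain of clotting factor XIII, which cross-links fibrin and is made by platelets, monocytes and macrophages. It read 2492, 1347 and 1833 in the Ly6G+ samples, against 1450, 1079 and 232 in the Ly6G- samples. Ly6G- DC 1 lay above Ly6G+ DC 2, and Ly6G- DC 3 was far under the other 5 arrays. The log2 fold change was 1.33 ± 0.58 (SE), with an adjusted p of 0.836 by limma, and it was 0.55 without Ly6G- DC 3. With the side as a block it was 0.97 ± 0.49, with 0.55 within the low and 1.39 within the high side.

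**Figure D2:**
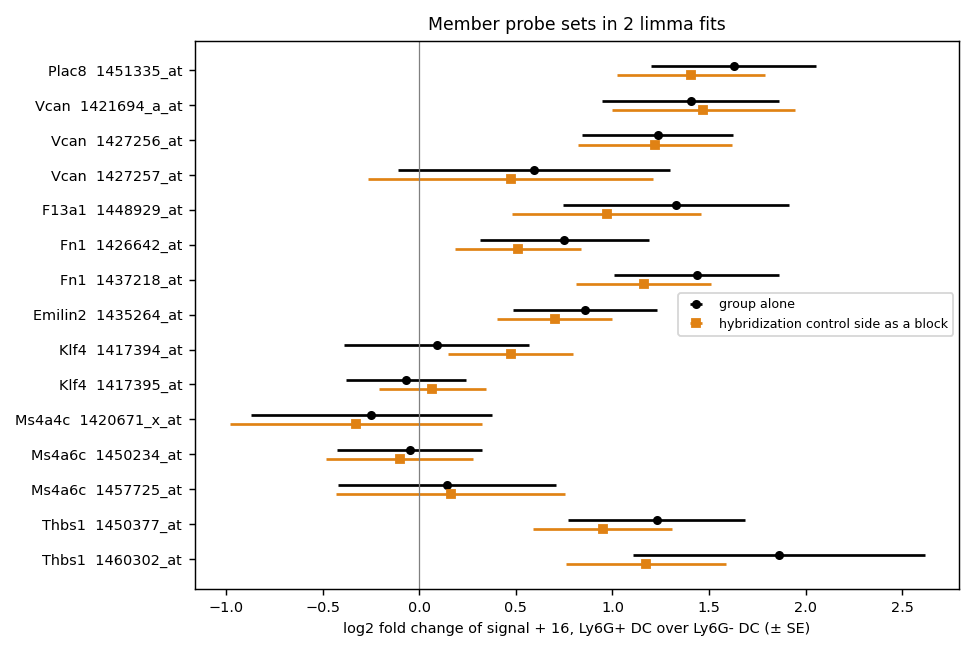
log2 fold changes of the 15 kept member probe sets, Ly6G+ DC over Ly6G- DC, with SE bars, from the fit of the group alone (black circles) and with the side of the hybridization controls added as a block (orange squares). The block moved Thbs1 1460302_at from 1.86 to 1.17 and Klf4 1417394_at from 0.09 to 0.47, and Vcan 1427256_at from 1.23 to 1.22.

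Klf4, the transcription factor, read 700, 1316 and 1074 by probe set 1417394_at in the Ly6G+ samples and 416, 1215 and 1606 in the Ly6G- samples. By 1417395_at it read 480, 522 and 497 in the Ly6G+ samples and 371, 661 and 586 in the Ly6G- samples. In both probe sets the Ly6G+ values lay inside the range of the Ly6G- values. The log2 fold changes were 0.09 and -0.07, with 95% intervals of -0.97 to 1.15 and -0.76 to 0.62, and the second turned to 0.25 with arrays scaled to a common median. With the side as a block they were 0.47 ± 0.32 and 0.07 ± 0.28. Within the low side they were 1.03 and 0.38, and within the high side -0.09 and -0.25.

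Ms4a6c and Ms4a4c belong to the MS4A family of membrane proteins with CD20 as its best known member. Ms4a6c read 214, 200 and 285 by 1450234_at in the Ly6G+ samples and 242, 371 and 151 in the Ly6G- samples. Its other probe set, 1457725_at, read 88.0, 104 and 51.2 in the Ly6G+ samples and 87.0, 23.6 and 136 in the Ly6G- samples. Groups overlapped in both, with log2 fold changes of -0.05 and 0.14 and 95% intervals of -0.89 to 0.79 and -1.11 to 1.40, the first turning to 0.26 with common median scaling. With the side as a block they were -0.10 ± 0.38 and 0.16 ± 0.59. Within the low side they were 0.03 and -0.30, and within the high side -0.24 and 0.63. The kept probe set of Ms4a4c, 1420671_x_at, read 24.4, 77.0 and 101 in the Ly6G+ samples and 122, 114 and 25.0 in the Ly6G- samples. Its log2 fold change was -0.25, with a 95% interval of -1.64 to 1.14, and 0.01 with common median scaling. It was -0.33 ± 0.65 with the side as a block, -1.01 within the low side and 0.35 within the high side. The other, 1450291_s_at, read 20.2, 78.2 and 35.7 in the Ly6G+ samples and 52.0, 58.1 and 14.3 in the Ly6G- samples and was not kept. Suffixes with x or s mark probes that may also match related transcripts, so Ms4a4c may share signal with its near relatives.

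**Figure D3:**
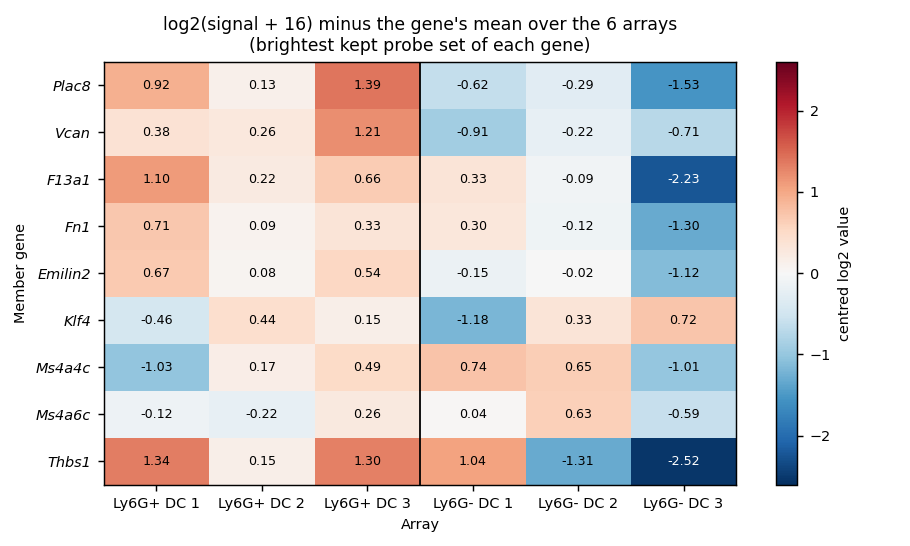
log2(signal + 16) of each member's brightest kept probe set minus its mean over the 6 arrays, with the Ly6G+ arrays left of the Ly6G- arrays and red for values above the mean. Ly6G- DC 3 has the lowest value of Plac8, F13a1, Fn1, Emilin2, Ms4a6c and Thbs1, from -2.52 for Thbs1 to -0.59 for Ms4a6c, while Klf4 has its highest value there, 0.72.

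Arrays of one group differed among themselves. Ly6G- DC 3 had the lowest value in 9 of the 15 kept probe sets, where it had the lowest value in 19.3% of all kept probe sets. The mean of the 9 centred genes was 0.39, 0.15 and 0.71 on Ly6G+ DC 1, 2 and 3, against -0.05, -0.05 and -1.14 on Ly6G- DC 1, 2 and 3. Ly6G- DC 1 and 2 thus lay close to Ly6G+ DC 2 and far from Ly6G- DC 3. Of the 15 probe sets 9 had positive log2 fold changes both within the low and within the high side, where 25.7% of all kept probe sets did. The genes most like this mean pattern, by Pearson's r over the 6 arrays among 9081 other genes with a range of at least 1 on the log2 scale, were Samd9l (r = 0.996), Fpr2, a formyl peptide receptor (0.993), Ets1, a transcription factor (0.990), Zswim6 (0.990) and Lmo2 (0.989). These arrays share their scaling and Ly6G- DC 3 was the lowest array for each of these 5 genes, so r is a description of 6 points.

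Other genes of monocytes, from a list that leaves out the members, were read beside them. Of 22 listed genes 17 were on the array by a single symbol and kept, with 12 positive and 5 negative log2 fold changes and a median of 0.55, against -0.07 over 13262 genes taken by their brightest kept probe set. Over their 26 kept probe sets the median was 0.46, and 0.22 without Ly6G- DC 3. By limma 0 of these 26 passed. At an unadjusted p under 0.05, 5 were higher and 2 lower, where 2.75% of all kept probe sets were higher and 2.87% lower. The 2 brightest were Csf1r, the receptor for the growth factor M-CSF, with -0.08 ± 0.45, and Chil3, a chitinase-like protein, with 1.85 ± 0.45 (SE). Chil3 read 14731, 21671 and 17975 in the Ly6G+ samples and 4161, 9678 and 3037 in the Ly6G- samples, with no overlap.

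Of the other MS4A genes 7 were kept, 1 positive and 6 negative, with a median of -0.21 over genes, Ms4a15 at -0.22 and Ms4a6d at 0.99. Over their 8 kept probe sets the median was -0.14, and 0.09 with quantile normalization, 0.15 with common median scaling and 0.13 without Ly6G- DC 3. Of the other Kruppel-like factors 12 were kept, 7 positive and 5 negative, with a median of 0.22 over genes, Klf6 at 0.37 and Klf9 at -0.27. Over their 33 kept probe sets the median was 0.12, and 0.41 with common median scaling and -0.10 without Ly6G- DC 1. Of the receptors and binding partners of the secreted members 14 were kept, 9 positive and 5 negative, with a median of 0.37 over genes, Tgm2, a transglutaminase, at 0.52 and Selplg, a ligand of selectins, at -0.46. Over their 38 kept probe sets the median was 0.0013, and 0.31 with common median scaling and -0.07 with the side as a block. Of related matrix and coagulation genes 17 were kept, 7 positive and 10 negative, with a median of -0.07 over genes, F10, clotting factor X, at 1.32 and F7, clotting factor VII, at 0.45. Over their 26 kept probe sets the median was -0.01, and 0.12 with quantile normalization, 0.27 with common median scaling and -0.23 without Ly6G- DC 1. In these 4 lists 0 probe sets passed limma's adjusted test. At an unadjusted p under 0.05, 8 were higher and 2 lower, where 2.75% of all kept probe sets were higher and 2.87% lower.

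**Figure D4:**
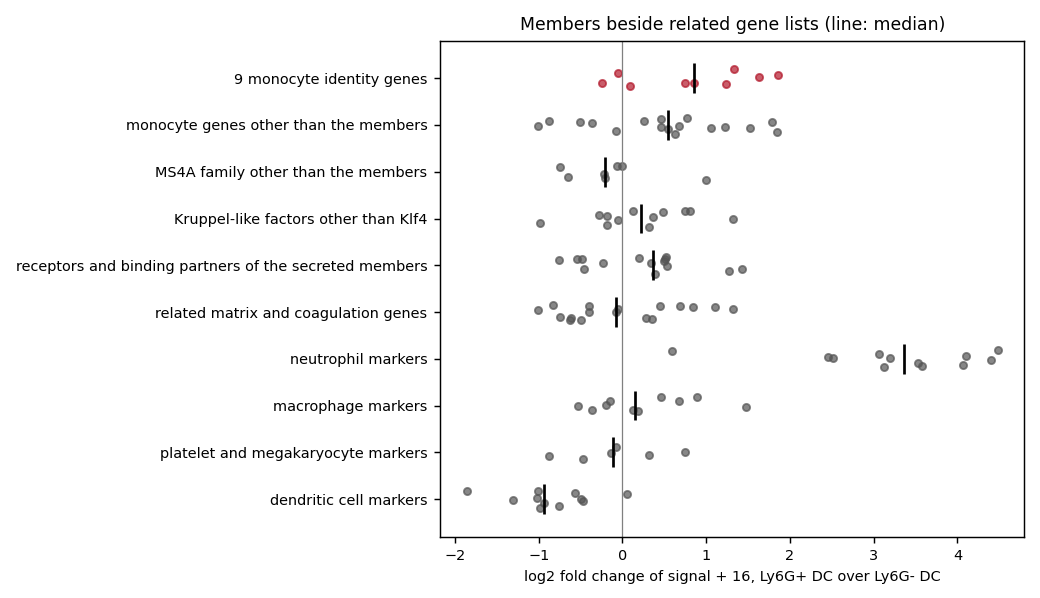
log2 fold changes, Ly6G+ DC over Ly6G- DC, of the brightest kept probe set of each gene in the 9 members (red), 5 related lists and 4 lists of markers, with a line at the median. The members' median is 0.86 and that of the neutrophil markers 3.36, while the dendritic cell markers have -0.93.

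Markers of other cells that the sort could hold were read on the same arrays. Of 12 neutrophil markers 12 were higher with no overlap between groups, where 4.95% of all genes taken by their brightest kept probe set were. Their summed signal was 84356 to 108807 in the Ly6G+ samples, against 11120 to 27173 in the Ly6G- samples, lowest on Ly6G- DC 3. Of 10 macrophage markers 6 were positive, with sums of 18563 to 19696 in the Ly6G+ samples and 14218 to 21930 in the Ly6G- samples. Of 6 platelet and megakaryocyte markers, which matter here because platelets hold F13a1 and Thbs1, 2 were positive, with sums of 6827 to 8272 in the Ly6G+ samples and 3762 to 7428 in the Ly6G- samples. Pf4, at 4707 to 6331 in the Ly6G+ samples and 1863 to 5656 in the Ly6G- samples, was the largest part, and Ppbp was the other positive marker. Itga2b, Gp9, Gp1bb and Treml1 were negative and dimmer, at 5.26 to 328 in the Ly6G+ samples and 9.39 to 444 in the Ly6G- samples. Of 11 dendritic cell markers 10 were negative, with sums of 70878 to 142038 in the Ly6G+ samples and 114486 to 259108 in the Ly6G- samples. These sums also followed the hybridization controls, and were highest on the arrays of the high side. The median log2 fold change of these markers was -0.93, and -0.63 with the side as a block. The lists of fibroblast, T and NK lymphocyte, B lymphocyte and erythroid markers had sums of 136 to 619 in the Ly6G+ samples and 157 to 1174 in the Ly6G- samples. Cd3e, Cd3d and Cd4 of the T and NK list and Lum, a fibroblast gene, were under the 40th percentile on all 6 arrays. Other genes of these lists were kept, among them Cd8a, Ncr1 and Zap70, and Col1a1, Col1a2, Col3a1 and Pdgfra. Zap70 read 77.1 to 401 in the Ly6G+ samples and 431 to 721 in the Ly6G- samples. The list for mast cells, basophils and eosinophils had 1486 to 3141 in the Ly6G+ samples and 845 to 1145 in the Ly6G- samples. The part of any of these cells, of the RNA quality or of Ly6G- DC 3 in the members' differences was not tested.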

How the data were processed

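The deposited values were signal intensities per probe set, on a linear scale. Each array's mean after trimming 2% at either end came to 250, as computed from the values. Software named in the submitters' processing notes was Affymetrix Expression Console 2.0 along with MAS5 and GCOS, and which step each ran is not stated. Per the labels' protocols, 200 ng of Trizol-extracted RNA was amplified from an oligo-dT primer, which favours 3' ends. The table held 45101 probe sets, 64 of them controls. The platform annotation gave 1 symbol for 34958, several for 932 and none for 9211.

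From these values, log2(signal + 16) was tested with limma 3.58.1 in R 4.3.3 (eBayes with an intensity trend), with Benjamini-Hochberg adjustment over 28254 kept probe sets and a threshold of 0.05. The procedure was tested on simulated data with independent noise and no array effects, so that test does not cover the differences among these arrays. Named from the related lists were genes past the threshold or else the 2 brightest. The members and lists were chosen with earlier results of these data known. The hybridization control side was split at the widest gap over 18 control probe sets. Same-numbered arrays were checked for pairing by the correlation of their deviations from the group means, which was 0.52, 0.26 and -0.04. Ly6G+ DC 3 and Ly6G- DC 3 lay on opposite sides of the hybridization controls, so this check cannot decide whether they were paired. The numbers were not used as pairs in the main fit. Alternatives were other scalings, pseudocounts, filters, variance models, blocks, 1 probe set per gene and leaving out each array. The number of arrays limits the precision.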

Additional observations from a re-analysis of the deposited data

How the results depend on the processing

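Limma's test of the group alone passed 0 member probe sets, and leaving out 1 array gave 0 to 1, with the 1 found without Ly6G- DC 1, where 24 probe sets passed overall. That fit held no Ly6G- array of the low side. At an unadjusted p under 0.05, 8 of 15 members were higher in Ly6G+ DC, where 2.75% of all probe sets tested were, against 5 of 15 with no intensity trend (2.41%) and 5 of 9 with 1 probe set per gene (3.39%). Leaving out 1 array gave 3 without Ly6G+ DC 3 (1.04%) to 9 without Ly6G- DC 1 (7.39%). The count of members higher with no overlap was 6 of 15 (4.49% of all), against 3 of 9 with 1 probe set per gene (4.95%). On leaving out 1 array it was 6 to 10 (6.77% to 14.1%). The count lower was 0 of 15 (7.24% of all). On leaving out 1 array the count lower was 0 to 1, where 2461 to 5696 of all 28254 probe sets were lower. The log2 fold change of Klf4 1417395_at turned to 0.25 with common median scaling, 0.067 on blocking by the hybridization control side and 0.012 with that and the array name form as blocks together, an alternative chosen after seeing the data. Common median scaling turned Ms4a4c 1420671_x_at to 0.0086 and Ms4a6c 1450234_at to 0.26. Leaving out 1 array gave -0.48 to 0.47 for Klf4 1417394_at, -0.31 to 0.094 for Klf4 1417395_at, -0.82 to 0.21 for Ms4a4c 1420671_x_at, -0.36 to 0.25 for Ms4a6c 1450234_at and -0.41 to 0.56 for Ms4a6c 1457725_at. The cause of these turns was not tested. Of 277 alternative values of member probe sets, 260 kept their direction and side of the threshold, 16 turned and 1 passed newly.

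The replicate number as a block passed 19 probe sets overall and 0 members, with 9 members higher at an unadjusted p under 0.05, where 5.69% of all were, and the array name form as a block passed 21 overall and 0 members. Deviations of same-numbered arrays had correlations of 0.52, 0.26 and -0.04, and not every array correlated best with its own number. Ly6G+ DC 3 and Ly6G- DC 3 lay on opposite sides of the hybridization controls, so these values do not decide the pairing. The median log2 fold change of the kept members was 0.86, and without Ly6G- DC 3 it was 0.55. Probe sets near the 40th percentile of an array, as those of Ms4a4c and most of Vcan, have noisy values, and 3 arrays per group limit the precision.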
